A study of Mus musculus with 20 samples.

Results

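In 5 arrays of mouse fetuses, out of 20 arrays in the whole series, frontal cerebral cortex exposed to cocaine before birth was compared with frontal cortex exposed to saline. The members are all arrays titled as fetal frontal cortex, and each array compared both treatments directly, with cocaine-exposed RNA in channel 1 and saline-exposed RNA in channel 2. Per the labels' protocols, dams of the outbred Swiss Webster strain were injected under the skin with 20 mg/kg cocaine hydrochloride 2 times a day from embryonic day 8 to embryonic day 18. Control dams received saline on that schedule and were pair-fed, that is, given as much food as a cocaine dam ate. Tissue was collected 1 h after the morning injection on embryonic day 18, so the fetuses carried a long exposure and a recent dose together. The piece taken was the frontal cerebral wall in front of the striatum, which holds the cortex with the transient zones beneath it. Each channel held 5 µg of total RNA from the tissue of 2 fetuses, and every slide used its own litters, so the 5 arrays are separate biological samples. The groups set against it are fetal occipital cortex, from the hind cerebral wall at the same age and exposure, and adult frontal cortex of offspring on postnatal day 30, with 5 arrays each. The titles give 2 fetal occipital arrays the number 1, and these are called replicates 1 and 1b. They were counted as separate samples, as their ratios correlated at 0.318 (Pearson) across probes, against 0.223 to 0.562 for the other pairs of that group.

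The cerebral wall at this age is a tissue under construction. Radial glia line the ventricle, divide and give rise to intermediate progenitors and neurons, which climb through the subplate into the cortical plate and there take on the identity of a layer, while inhibitory interneurons migrate in from the ventral forebrain. Cocaine blocks the transporters that take dopamine, noradrenaline and serotonin back into nerve terminals, and dopamine fibres reach the frontal wall before birth. Gliogenesis and synapse formation are only beginning at this stage in the mouse.

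Each value is the log2 of the cocaine signal over the saline signal after the array's own median was taken off, and values are listed in the order of replicates 1 to 5. A value of 1 means 2 times as much signal in the cocaine channel as in the saline channel, read below as transcript. Means carry the standard error of a limma model in which the spread of each probe was shared over all 20 arrays. A probe was called higher or lower where its mean differed from 0 at an adjusted p below 0.05. Of 22567 probes, 37.0% were called, 18.7% as higher and 18.4% as lower, and 6773 of the 8359 called probes had the same sign on all 5 arrays. Counted over the 16504 named genes, 20.7% were higher and 16.5% were lower, and these shares are the background for every gene list below. A ratio gives no level, so the labelled tissue could not be checked against the levels of its markers. Fewer cells of a type and less RNA per cell cannot be told apart in tissue RNA.

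The direction of the ratio is likely and not stated outright, since the labels assign cocaine to channel 1 and saline to channel 2 without a dye swap. For the same reason, a difference between the dyes at a probe cannot be told apart from a difference between the treatments. Channel 1 of replicate 1 lists both dyes. Its ratios correlated with those of the other 4 arrays at 0.364 to 0.571 across 22567 probes that share an array design, and with its sign turned 9 probes were called. Replicate 2 and replicate 4 had the widest ratios, with a median absolute deviation of 0.857 and 0.840, against 0.485 to 0.613 on the other 3 arrays. Without replicate 2 the calls numbered 5243, the fewest of the 5 fits that each left out 1 array.

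The ratio of a probe also followed its brightness. Since intensities were not analysed here, each spot was scored from its ratio, because a ratio that small whole numbers can give marks a dim spot. In the dimmest 10% of probes the median ratio lay below 0 on all 5 arrays, between -1.63 in replicate 4 and -0.48 in replicate 3, and 63.8% of those probes were lower. In the brightest 10% the medians lay between 0.669 in replicate 4 and 1.96 in replicate 2, and 72.4% of the probes were higher. With this trend removed from each array, 4.33% of genes were higher and 3.85% were lower, and 1241 probes were called in the same direction in both fits. The value with the trend removed is therefore given for the gene lists and for part of the named genes. A gene given without it may have lost its call in that fit. Whether the trend comes from the arrays or from abundant transcripts was not tested.

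**Figure D1:**
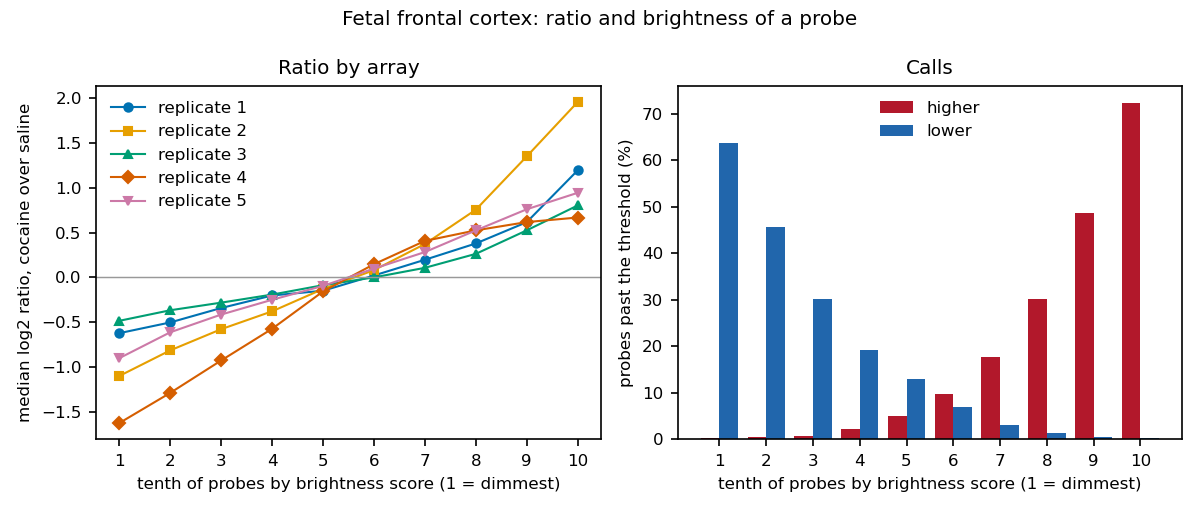
Left, the median log2 ratio of cocaine over saline in each of 10 equal groups of probes by brightness score, with 1 line per array. Right, the percentage of probes in each group called higher (red) or lower (blue). All 5 lines run upward, and calls are 63.8% lower in the dimmest group and 72.4% higher in the brightest.

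The largest change with the same sign on every array was that of Rgs20, a regulator that shortens signalling through G proteins of the Gi and Gz kind. Its ratios were 5.54, 4.24, 3.02, 1.33 and 3.89. Every array lay above 1 and replicate 4 was the lowest. The mean of 3.61 ± 0.44 corresponds to 12.2-fold more signal in the cocaine channel (limma, adjusted p = 6.8e-05), and it was 2.05 with the brightness trend removed. With the sign of replicate 1 turned the mean was 1.39, the 5 arrays no longer shared a sign, and the probe was not called. In fetal occipital cortex the same probe averaged 2.03 ± 0.44 and in adult frontal cortex 2.38 ± 0.44, and the fetal frontal mean did not pass the test of a difference from either (adjusted p = 0.22 and 0.37).

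Beyond the genes with the highest means, the list of the 15 highest held Cald1, an actin- and myosin-binding protein of moving cells. Its ratios were 3.32, 2.02, 2.64, 1.81 and 2.16. The arrays lay close together, and the mean was 2.39 ± 0.33 with the trend and 1.54 without it. Top2b, the topoisomerase of postmitotic neurons that opens long genes for transcription, had ratios of 2.76, 2.96, 2.04, 1.24 and 2.69. All 5 arrays lay above 1, with a mean of 2.34 ± 0.30 and of 0.97 with the trend removed. Usp4, a deubiquitinating enzyme, had ratios of 3.27, 2.98, 2.15, 1.2 and 2.88, and its mean of 2.50 ± 0.36 moved little, to 2.17, when the trend was removed. Ift81 (2.33 ± 0.41), which carries tubulin along growing cilia, and Styx (2.31 ± 0.41), a phosphatase-like protein without enzyme activity, were also on this list. Gp1bb (2.33 ± 0.36), a subunit of the platelet receptor for von Willebrand factor, stood there too. With the trend removed Styx (1.65) and Gp1bb (1.13) were called and Ift81 (1.12) was not.

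The 15 lowest genes came from many families. Arhgef38, a guanine nucleotide exchange factor, had at the lower of 2 probes ratios of -2.20, -3.02, -1.29, -2.21 and -1.79, all below -1, and a mean of -2.10 ± 0.31 that was -1.30 with the trend removed. Hpx, the haem-binding plasma protein hemopexin, averaged -2.06 ± 0.29 over ratios between -3.48 and -1.39. Acacb, the acetyl-CoA carboxylase of the mitochondrial surface, averaged -2.09 ± 0.54 over ratios of -0.30, -0.52, -0.89, -1.53 and -7.22. Replicate 5 set that mean, and without it the call was lost (adjusted p = 0.065). The testis gene Tsga13 (-2.09 ± 0.45) and the vomeronasal receptor Vmn1r198 (-2.09 ± 0.46) were also among these 15. With the trend removed they stood at -1.02 and -1.19, and neither was called.

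Of these 30 genes, 23 were also called with the brightness trend removed, 12 of the highest and 11 of the lowest. Without each array in turn, 29 of the 30 kept their call, Acacb being the exception. The 30 were picked for large means of the same sign on these same arrays, so that count is no independent test of them. For G3bp1 the other probe averaged 0.75 ± 0.33 and was not called. The probes of Slc34a2, Trpm5, G3bp1, Atp6v1g3, Krtap15, Elf3 and Hpx, all among the lowest, stood between columns 187 and 213 of 215. Among the highest, Gse1 stood at column 193 and Wbp2nl and Gp1bb at column 214. The columns were inferred from the order of the probes, which 105 rows of 215 fill exactly, and are not given in the files. With the trends in brightness and position both removed, 22 of the 30 were called. For the 849 olfactory and vomeronasal receptor genes, which serve the nose and have little place in cortex, 80 were higher and 249 lower, with a median of -0.39, against 14 higher, 56 lower and a median of -0.18 with the trend removed.

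**Figure D2:**
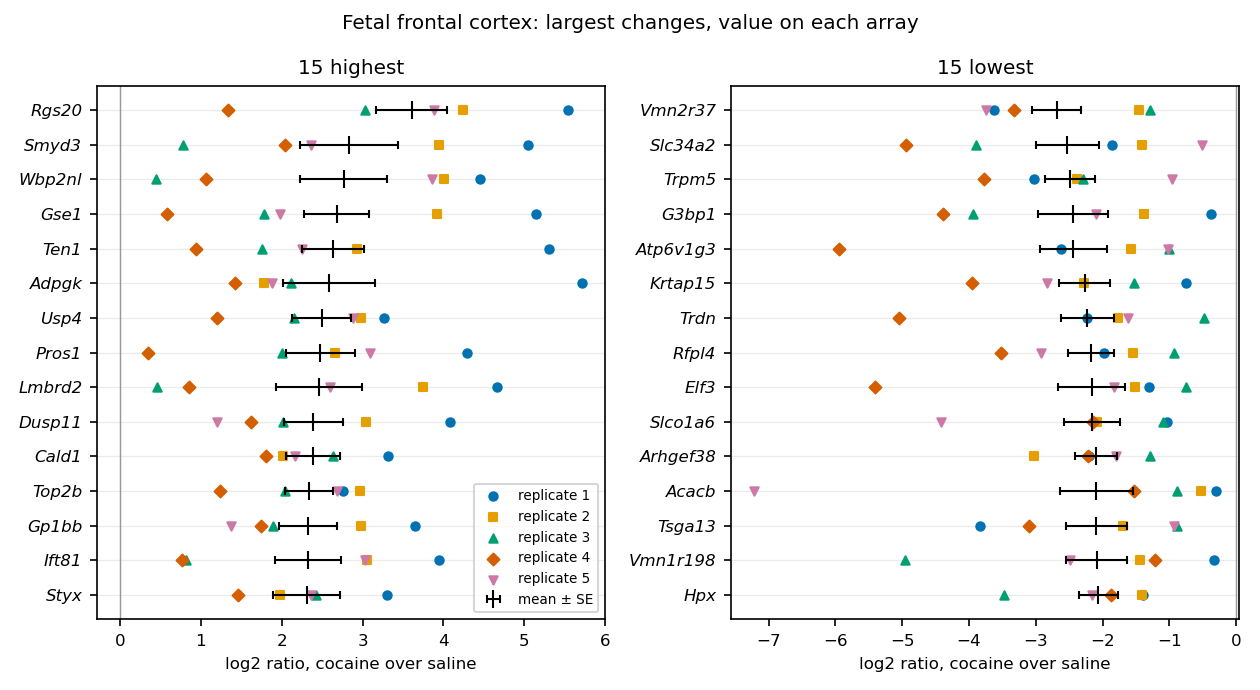
Log2 ratio of cocaine over saline for the 15 highest (left) and 15 lowest (right) genes called with the same sign on 5 arrays, 1 symbol per replicate, with black bars for the mean ± SE of the limma model. Replicate 1 is the highest point for most genes on the left, replicate 4 is often the lowest on the right, and Acacb rests on replicate 5.

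Gene lists were read by counts and by the median ratio of their measured genes, beside 20.7% higher, 16.5% lower and a median of 0.02 over all named genes. The 37 lists held 1146 measured genes, of which 369 were higher and 127 lower. Lists of bright probes had the highest medians. Across the 37 lists, the median ratio and the median brightness percentile had a Spearman correlation of 0.80, a description over lists that share probes' brightness. In the main fit 496 of these genes were called, with the brightness trend removed 100, and without replicate 2 298. Of 527 called probes on the lists, 250 kept their call without each array in turn and 223 lost it without replicate 2.

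**Figure D3:**
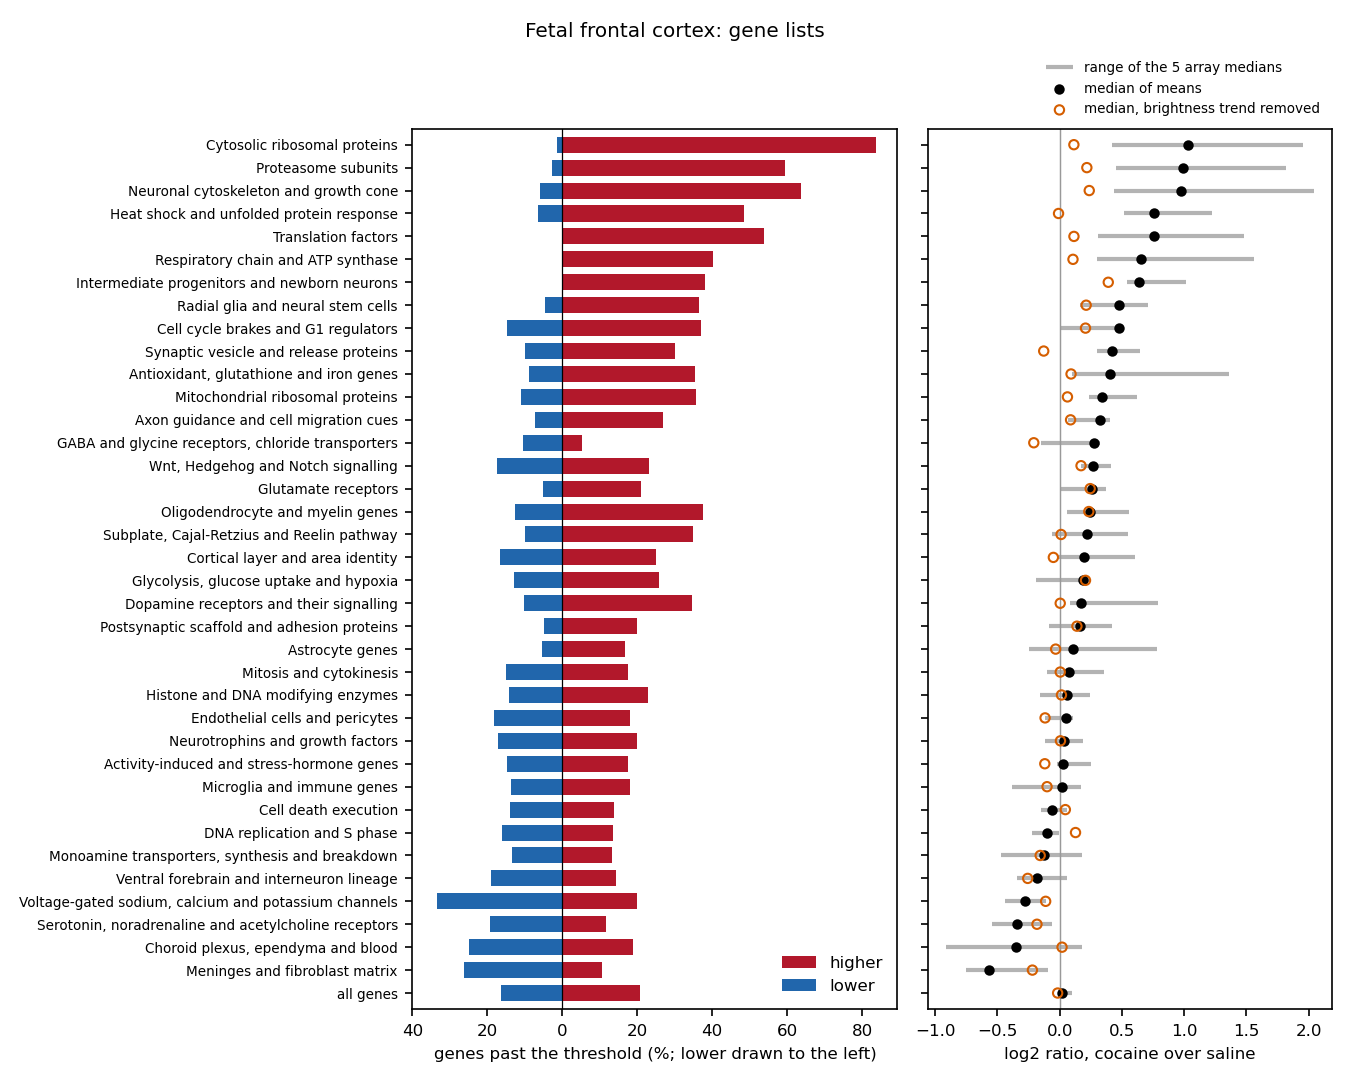
Left, the percentage of measured genes of each list called higher (red) or lower (blue, drawn to the left). Right, the median log2 ratio of each list (black), the range of its 5 array medians (grey) and the median with the brightness trend removed (orange circles). Ribosomal, proteasome and cytoskeleton genes stand at the top, meninges and blood genes at the bottom, and the orange circles lie between -0.26 and 0.39.

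Among the genes of newborn neurons, 8 of 21 were higher and none lower, with a median of 0.64, against 3 higher, none lower and 0.39 with the trend removed. The clearest was Sox11, a transcription factor that switches on neuronal genes as progenitors leave the cell cycle. Its first probe had ratios of 1.80, 1.85, 1.02, 0.74 and 1.43, a mean of 1.37 ± 0.27 and, with the trend removed, of 1.38. All 3 Sox11 probes rose, the others with means of 1.25 ± 0.45 and 1.24 ± 0.31. Neurod2, which drives the differentiation of glutamatergic neurons, had ratios of 1.23, 2.14, 2.11, 0.90 and 0.62 and a mean of 1.40 ± 0.29, or 0.91 with the trend removed. Every array lay above 0.5 for this gene. Sox4, in the same family as Sox11, averaged 1.85 ± 0.46 with replicate 1 at 5.2 and replicate 3 at -0.28. Neurog1 (0.95 ± 0.25), Insm1 (0.77 ± 0.27), Tbr1 (1.12 ± 0.33), Tubb3 (0.94 ± 0.30) and Stmn1 (1.28 ± 0.34) rose as well. Without replicate 2, 5 genes of this list were called. Leaving out 1 array ended the call of the Sox11 probe at 1.25 (replicates 1, 2 or 5, adjusted p up to 0.18), Insm1 (replicates 1, 2 or 3, adjusted p up to 0.10), Tbr1 (replicate 2, adjusted p = 0.078) and Tubb3 (replicate 2, adjusted p = 0.14).

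Some landmarks of the same step did not pass. Eomes, the marker of intermediate progenitors, averaged 0.47 ± 0.36, and Dcx, the microtubule protein of migrating neurons, averaged 0.60 ± 0.46 over ratios that ran from -1.79 to 2.54. Neurog2, which commits cortical progenitors to the neuronal fate, averaged 0.76 ± 0.31 with an adjusted p of 0.050, and 1.28 with the trend removed, where it passed. Neurod6 averaged 0.73 ± 0.35. With the brightness trend removed, Sox11, Neurod2 and Neurog2 were the 3 genes of the list called, all higher.

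Radial glia and neural stem cell genes were higher in 8 of 22 cases and lower in 1, with a median of 0.48, against 1 higher, none lower and 0.21 with the trend removed. Sox9, which maintains progenitors, had ratios of 2.29, 2.38, 0.74, 1.41 and 0.95 and a mean of 1.55 ± 0.30. Cdh2, the cadherin of the ventricular surface, had ratios of 1.08, 2.06, 1.5, 1.79 and 1.03 and a mean of 1.49 ± 0.34, and Msi1, an RNA-binding protein of progenitors, averaged 1.37 ± 0.31. These genes stood above 0 on every array. Vim (0.87 ± 0.33), Prom1 (0.75 ± 0.27) and 1 of 2 probes each of Tnc (1.11 ± 0.34), Ptprz1 (0.86 ± 0.27) and Gli3 (0.81 ± 0.27) rose too, and all 5 lost their call without replicate 2. Pax6, the regulator of dorsal progenitors, fell, with ratios of -1.21, -2.34, -0.82, -0.05 and -1.03 and a mean of -1.09 ± 0.34. Sox2 (0.76 ± 0.34), Nes (-0.19 ± 0.37), Hes1 (0.02 ± 0.27), Fabp7 (0.08 ± 0.32) and Slc1a3 (0.12 ± 0.34) were not called. With the brightness trend removed only Prom1, a membrane protein of stem cells, was called in this list, at 1.49. A call was lost when 1 array was left out for Vim (replicates 2, 3 or 5, adjusted p up to 0.16), Prom1 (replicates 2 or 3, adjusted p up to 0.15) and Pax6 (replicate 2, adjusted p = 0.11).

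Genes of cortical layer and area identity went both ways, with 6 of 24 higher and 4 lower, or 2 higher and 1 lower with the trend removed. Pou3f3, a factor of upper-layer neurons and their migration, had ratios of 3.10, 3.19, 1.45, 0.36 and 1.31 and a mean of 1.88 ± 0.35, which was 1.37 with the trend removed. Its relative Pou3f2 averaged 1.38 ± 0.30, Mef2c 1.49 ± 0.31 and Otx1, a deep-layer gene, 1.53 ± 0.27, all above 0 on 5 of 5 arrays. Bcl11b, which specifies neurons that project below the cortex, averaged 1.15 ± 0.33, with ratios of 2.84, 1.21, 0.18, 0.10 and 1.41, and its call was lost without replicate 1 (adjusted p = 0.096). The upper-layer gene Cux2 (-1.24 ± 0.35), the deep-layer gene Foxp2 (-1.09 ± 0.32), Zfpm2 (-1.01 ± 0.29) and Lhx5 (-1.12 ± 0.30) fell. Cux2 lost its call without replicate 4 (adjusted p = 0.065) and Foxp2 without replicate 5 (adjusted p = 0.15). Fezf2 (0.31 ± 0.31), Cux1 (-0.15 ± 0.33), Rorb (-0.21 ± 0.29), Lmo4 (-0.05 ± 0.30) and the area gene Nr2f1 (-0.33 ± 0.28) were not called. The call was lost without 1 of the arrays in brackets for Zfpm2 (replicates 2 or 4, adjusted p up to 0.075).

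In the list of subplate, Cajal-Retzius and Reelin pathway genes, 7 of 20 were higher and 2 lower, with a median of 0.22, against none higher, 1 lower and 0.01 with the trend removed. Reln itself, the secreted guide of layer formation, averaged -0.19 ± 0.37 and was not called. Trp73, a p53 relative that Cajal-Retzius cells need, fell to -1.73 ± 0.33 over ratios of -1.2, -0.50, -1.08, -3.59 and -2.25, and stood at -1.81 with the trend removed. Below Reelin, the adaptor Dab1 (0.76 ± 0.26) and Cdk5r1 (1.66 ± 0.39), the activator of Cdk5, rose, while Cdk5 (0.37 ± 0.36) and the receptor gene Vldlr, with probes at -0.39 ± 0.29 and 0.51 ± 0.30, did not pass. Nr4a2, a subplate transcription factor, had ratios of 1.46, 1.56, 0.71, 0.85 and 1.57 and a mean of 1.23 ± 0.30. It stood above 0 on all arrays, yet stood at -0.08 with the trend removed. The chemokine Cxcl12 of the meninges (1.40 ± 0.30) rose, and its receptor Cxcr4 (0.71 ± 0.28) rose with a call lost without replicates 1, 2, 4 or 5. Without the arrays in brackets, singly, no call was made for Dab1 (replicates 1, 2 or 5, adjusted p up to 0.080).

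Of 21 genes of the ventral forebrain and interneuron lineage, 3 were higher and 4 lower, with a median of -0.18, against none higher, 4 lower and -0.26 with the trend removed. Nkx2-1, the master regulator of the medial ganglionic eminence, had ratios of -0.37, -0.42, -0.69, -4.52 and -1.41, a mean of -1.48 ± 0.38 and a mean of -1.38 with the trend removed. Dlx1, which interneuron precursors need to migrate, had ratios of -0.38, -0.64, -0.33, -4.43 and -0.35 and a mean of -1.23 ± 0.38. Both were below 0 on every array, and replicate 4 carried much of each mean. Gad1, the enzyme that makes GABA, fell to -0.94 ± 0.28, and Gad2 was not called in the main test with either probe (-0.39 ± 0.30 and 0.03 ± 0.27). The neuropeptide gene Npy rose, with ratios of 1.13, 2.45, 1.43, 1.27 and 0.68 and a mean of 1.39 ± 0.30. Lhx6 (0.99 ± 0.33) and Dlx5 (0.68 ± 0.27) rose, and Zfhx3 fell with 1 of 2 probes (-0.81 ± 0.26). Sst (0.21 ± 0.31), Slc32a1 (-0.28 ± 0.31), Dlx2 (0.03 ± 0.26) and Lhx8 (-0.71 ± 0.31) were not called in the main test. With the trend removed, Sst (-1.0) and the Gad2 probe at 0.03 (-1.1) were called lower. Omitting any 1 of the arrays in brackets ended the call of Nkx2-1 (replicate 4, adjusted p = 0.063), Dlx1 (replicate 4, adjusted p = 0.27), Gad1 (replicate 4, adjusted p = 0.068) and Lhx6 (replicates 3, 4 or 5, adjusted p up to 0.10). For Dlx5 the same held (replicates 2, 4 or 5, adjusted p up to 0.15).

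**Figure D4:**
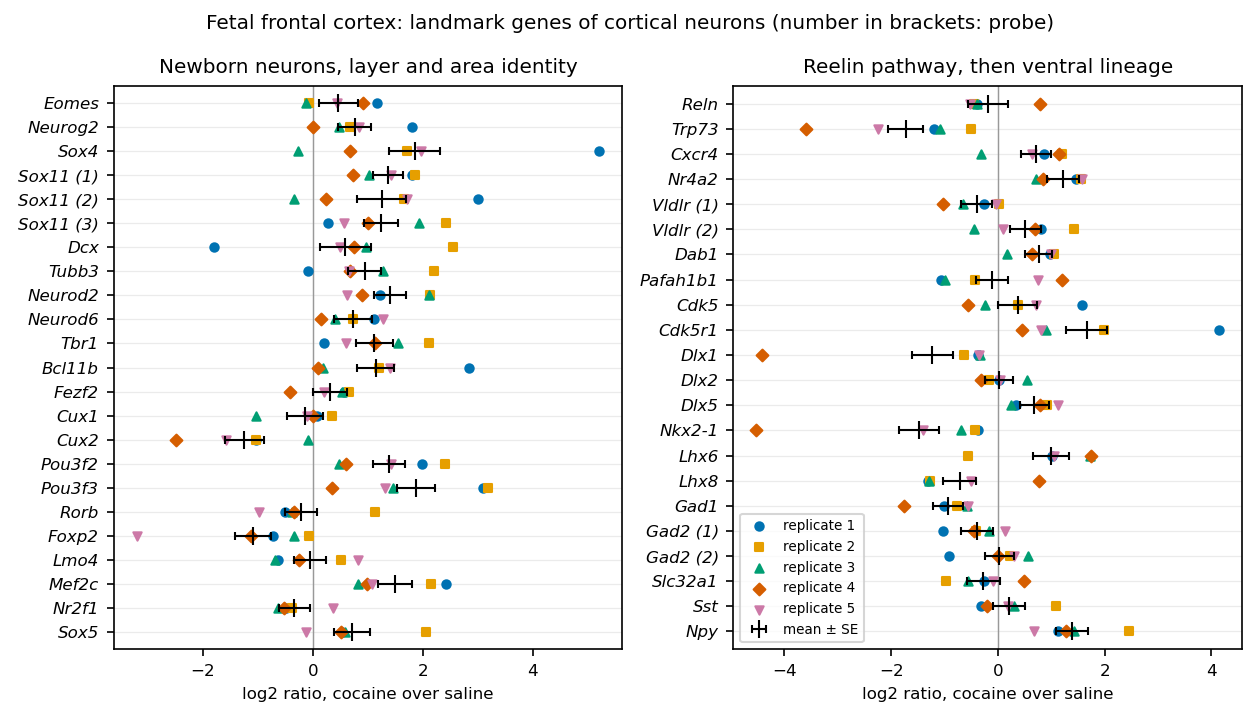
Log2 ratio of cocaine over saline on each of the 5 arrays for the landmark genes of newborn neurons and layers (left) and of the Reelin pathway and ventral lineage (right), with black bars for the mean ± SE and a number in brackets where a gene has several probes. Sox11, Neurod2, Pou3f3 and Npy stand above 0 on all arrays for at least 1 probe, and Nkx2-1 and Dlx1 have replicate 4 far to the left.

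The machinery of cell division showed calls in both directions. For DNA replication and S phase, 5 of 37 genes were higher and 6 lower, with a median of -0.10, and for mitosis and cytokinesis 7 of 40 were higher and 6 lower, with a median of 0.07. The first list had 2 higher and 2 lower genes with the trend removed and the second 1 higher and 2 lower. Ect2, the exchange factor that sets the cleavage furrow, had the lowest mean of the mitosis list. Its ratios were -1.98, -1.78, -1.13, -2.93 and -2.44, all below -1, with a mean of -2.05 ± 0.31 (limma, adjusted p = 0.00012) and of -1.62 with the trend removed. Aspm, a spindle-pole protein of cortical progenitors, fell with 1 of its 2 probes (-1.66 ± 0.35), and the other averaged -0.10 ± 0.28. Cdk2, the S-phase kinase, fell to -1.44 ± 0.31, and Prim1, which primes DNA synthesis, to -0.91 ± 0.30. Cdt1, a licensing factor of replication origins, rose to 1.16 ± 0.28 on all 5 arrays. Aurka (1.52 ± 0.28), Prc1 (1.41 ± 0.27) and Birc5 (1.39 ± 0.29), which serve the mitotic spindle, rose, as did the centromere histone Cenpa (1.04 ± 0.39) and Cdc20 (0.83 ± 0.31, or -0.38 with the trend removed), an activator of the anaphase-promoting complex. The checkpoint kinase Bub1 (-1.19 ± 0.32), the kinetochore protein Spc24 (-1.44 ± 0.31) and the protease Espl1 (-1.60 ± 0.36), which frees sister chromatids, fell. The standard proliferation markers Mki67 (-0.90 ± 0.37), Pcna (0.19 ± 0.41), Top2a (-0.02 ± 0.40), Cdk1 (-0.46 ± 0.32) and Mcm2 (-0.24 ± 0.35) were not called. Leaving out 1 array ended the call of Prim1 (replicates 3 or 4, adjusted p up to 0.11), Cenpa (replicates 1 or 3, adjusted p up to 0.21) and Cdc20 (replicates 2, 3 or 4, adjusted p up to 0.23).

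Brakes and G1 regulators of the cell cycle were higher in 10 of 27 cases and lower in 4, with a median of 0.47, against 1 higher, 2 lower and 0.21 with the trend removed. Cdkn1b, an inhibitor that holds newborn neurons out of the cycle, rose with 1 probe, with ratios of 2.79, 2.89, 0.86, 0.83 and 1.58 and a mean of 1.79 ± 0.36, and did not pass with the other (0.01 ± 0.33). The D cyclins, which open G1, rose together in this tissue, Ccnd1 at 0.87 ± 0.27, Ccnd2 at 1.19 ± 0.31 and Ccnd3 at 0.98 ± 0.26, as did their partner Cdk4 at 1.41 ± 0.32. With the trend removed, the mean of Ccnd3 was just below 0. Gadd45b, a stress-responsive growth arrest gene, fell to -2.01 ± 0.38, with replicates 4 and 5 at -2.76 and -4.44 and the other 3 arrays between -1.25 and -0.62. Rbl1, the retinoblastoma relative p107, fell to -1.48 ± 0.30 on all arrays and to -1.18 with the trend removed, and Myc fell to -0.92 ± 0.29. Cdkn1a, the target of p53, averaged -0.48 ± 0.37 and was not called. With the trend removed, E2f1 was the gene of this list called higher, at 1.21, and Rbl1 and Gadd45b were called lower. A call was lost when 1 array was left out for Ccnd1 (replicate 5, adjusted p = 0.054) and Myc (replicate 2, adjusted p = 0.14).

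Cell death genes were called in 10 of 36 cases, 5 higher and 5 lower, with a median of -0.06, against 1 higher, 1 lower and 0.05 with the trend removed. The protective Bcl2 rose to 1.24 ± 0.29 over ratios of 1.72, 2.46, 1.05, 0.03 and 0.95, and Bcl2l1 rose to 0.90 ± 0.32. Htra2, a protease released from mitochondria in dying cells, rose to 1.69 ± 0.33 on 5 of 5 arrays. Cidea, of a family of cell death effectors, rose to 1.27 ± 0.32, or 0.42 with the trend removed, and the BH3-only gene Bik to 0.97 ± 0.32, or 0.15 with the trend removed. Casp8 (-0.90 ± 0.28), the caspase of death receptors, and the BH3-only gene Bcl2l11 (-0.75 ± 0.28) fell, and so did the caspase inhibitors Birc2, with both probes (-0.88 ± 0.29 and -1.29 ± 0.33), Cflar, with both probes (-0.90 ± 0.30 and -1.17 ± 0.29), and Xiap with 1 of 2 probes (-1.15 ± 0.32). Casp9 (0.38 ± 0.28), Apaf1 (-0.18 ± 0.28 and -0.61 ± 0.42), Bbc3 (0.57 ± 0.31) and Fas (-0.41 ± 0.31) were not called. The call was lost without 1 of the arrays in brackets for Bcl2l1 (replicates 1, 2 or 5, adjusted p up to 0.15), Casp8 (replicate 4, adjusted p = 0.093), Bcl2l11 (replicates 2, 4 or 5, adjusted p up to 0.23) and the Birc2 probe at -0.88 (replicates 2, 4 or 5, adjusted p up to 0.069). Without the arrays in brackets, singly, no call was made for the Cflar probe at -0.90 (replicates 1, 2 or 4, adjusted p up to 0.10), the Xiap probe at -1.15 (replicate 2, adjusted p = 0.052) and Bik (replicates 2 or 5, adjusted p up to 0.14).

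Genes of the neuronal cytoskeleton and growth cone were higher in 21 of 33 cases and lower in 2, with a median of 0.98. The 5 array medians of this list ran from 0.44 to 2.04, and with the trend removed 4 genes were higher and 2 lower, with a median of 0.24. Mtcl1, a microtubule-crosslinking protein, had ratios of 6.14, 4.58, 3.66, -0.15 and 4.26 at its first probe. That probe averaged 3.70 ± 0.51, with replicate 4 near 0 and the other 4 arrays above 3.5, and 2.43 with the trend removed, while its second probe averaged 1.2 ± 0.35. Map1b, the microtubule protein of growing axons, had ratios of 3.58, 2.53, 0.79, 1.15 and 2.04 and a mean of 2.02 ± 0.32, or 1.17 with the trend removed. Gap43, the growth cone phosphoprotein, had ratios of 1.57, 2.51, 2.19, 0.89 and 1.14 and a mean of 1.66 ± 0.32, or 0.87 with the trend removed. Both lay above 0.7 on every array. Tuba1a (1.35 ± 0.36), Crmp1 (1.5 ± 0.36), 1 of 2 probes of Map1a (1.67 ± 0.29) and the axonal motor Kif5c (1.71 ± 0.35) rose, whereas Cfl1, which severs actin filaments, fell to -1.09 ± 0.34 and the neurofilament gene Nefh to -1.19 ± 0.31. Map2 (1.14 ± 0.57), Dpysl2 (-0.13 ± 0.44) and Stmn2 (0.52 ± 0.26) were not called. The Mtcl1 probe at 1.2 (replicate 2, adjusted p = 0.087) and Cfl1 (replicates 2 or 4, adjusted p up to 0.095) lost their call when any 1 of the arrays in brackets was left out.

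Axon guidance and migration genes were higher in 11 of 41 cases and lower in 3, with a median of 0.32, against 2 higher, none lower and 0.09 with the trend removed. Plxna1, a receptor subunit for semaphorins, had ratios of 1.59, 2.42, 1.26, 0.74 and 1.60 and a mean of 1.52 ± 0.27, and 0.69 with the trend removed. Efnb2, a ligand of Eph receptors, rose to 1.53 ± 0.28 and L1cam, an adhesion molecule of axon bundles, to 1.09 ± 0.26, both on 5 of 5 arrays. All 3 probes of Ncam1 rose (1.08 ± 0.29, 0.75 ± 0.30 and 1.21 ± 0.38). The netrin receptor gene Unc5c (-1.40 ± 0.32) and Sema5a (-0.92 ± 0.30) fell. The semaphorin co-receptors went apart, with Nrp1 at 0.99 ± 0.36 and Nrp2 at -0.95 ± 0.33. Slit1 (-0.33 ± 0.28), Slit2 (-0.38 ± 0.35), Robo1 (0.44 ± 0.32), Ntn1 (0.68 ± 0.31), Dcc (0.57 ± 0.29) and Sema3a (-0.30 ± 0.35) were not called. Omitting any 1 of the arrays in brackets ended the call of the Ncam1 probe at 0.75 (replicates 2, 3, 4 or 5, adjusted p up to 0.27), the Ncam1 probe at 1.21 (replicates 2 or 5, adjusted p up to 0.18), Sema5a (replicates 2 or 4, adjusted p up to 0.11) and Nrp1 (replicates 2, 3 or 4, adjusted p up to 0.17). Leaving out 1 array ended the call of Nrp2 (replicates 4 or 5, adjusted p up to 0.21).

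Of 52 Wnt, Hedgehog and Notch genes, 12 were higher and 9 lower, with a median of 0.27, against 1 higher, 2 lower and 0.17 with the trend removed. Among Wnt ligands, Wnt5b (1.70 ± 0.33), Wnt2 (1.33 ± 0.31), Wnt4 (1.22 ± 0.32) and Wnt5a (0.84 ± 0.29) rose, and Wnt3 (-1.22 ± 0.31), Wnt3a (-1.29 ± 0.33) and Wnt6 (-0.81 ± 0.29) fell. Among their Frizzled receptors, Fzd1 (1.53 ± 0.30), Fzd3 (1.08 ± 0.34), Fzd5 (1.64 ± 0.31) and Fzd7 (1.23 ± 0.27) rose. Inside the cell, the transducer Ctnnb1, beta-catenin, rose to 0.79 ± 0.27 and the kinase Gsk3b, which marks it for destruction, fell with 1 of 2 probes to -1.2 ± 0.33. The pathway's target Axin2 averaged 0.49 ± 0.28 and was not called. In the Hedgehog pathway Smo, the signal transducer, fell with 1 of 2 probes to -1.2 ± 0.33 and Gli2, a transcription factor of the pathway, rose to 1.60 ± 0.30, with ratios of 2.36, 2.84, 0.79, 0.46 and 1.54. Of Notch ligands, Jag1 rose (0.87 ± 0.28), Jag2 fell (-1.36 ± 0.28) and Dll1 was not called (-0.50 ± 0.34). With the trend removed, Gli2 stood at 0.92 and Wnt3 at -0.95, and both were called. A call was lost when 1 array was left out for Wnt4 (replicate 2, adjusted p = 0.055), Wnt5a (replicates 1 or 2, adjusted p up to 0.098), Wnt6 (replicates 2, 4 or 5, adjusted p up to 0.13) and Fzd3 (replicate 2, adjusted p = 0.11). The call was lost without 1 of the arrays in brackets for Ctnnb1 (replicates 2 or 5, adjusted p up to 0.12), the Gsk3b probe at -1.2 (replicate 4, adjusted p = 0.075) and Jag1 (replicate 2, adjusted p = 0.13).

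Neurotrophin and growth factor genes were higher in 7 of 35 cases and lower in 6, with a median of 0.04, against 1 higher, 2 lower and 0.01 with the trend removed. Of the neurotrophin receptors, Ngfr, the p75 receptor, rose to 1.19 ± 0.27, with ratios of 0.87, 2.01, 1.24, 0.86 and 0.99. Ntrk3, the receptor of neurotrophin-3, fell to -1.13 ± 0.35, and Ntrk2, the receptor of brain-derived neurotrophic factor, fell with 1 probe (-0.94 ± 0.27) and not with the other (-0.11 ± 0.35). Gdnf (-1.10 ± 0.27) and its receptor Ret (-1.21 ± 0.27) fell together, below -0.5 on all 5 arrays. Erbb4, the neuregulin receptor of interneurons, rose with 1 of 2 probes (1.64 ± 0.33), Igf1r with 1 of 3 (1.31 ± 0.26), Fgfr1 to 0.97 ± 0.28 and Pdgfa to 1.59 ± 0.30. The share of genes called in this list, in each direction, was near that of all genes. This list was not alone in that. The shares were also near the background for mitosis, cortical layer and area identity, and Wnt, Hedgehog and Notch genes. The same held for histone and DNA modifying enzymes and for activity-induced, microglia and endothelial genes. Calls in both directions in those lists therefore do not set them apart from all genes. Without the arrays in brackets, singly, no call was made for the Ntrk2 probe at -0.94 (replicate 5, adjusted p = 0.054).

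Cocaine blocks the reuptake of dopamine and of the other monoamines. Of 29 genes for dopamine receptors and their signalling, 10 were higher and 3 lower, with a median of 0.17, against 3 higher, 1 lower and 0.00 with the trend removed. Among receptors, Drd3 rose, with ratios of 2.16, 2.67, 1.24, 0.92 and 1.32 and a mean of 1.66 ± 0.30, which was 0.36 with the trend removed. Drd2, the receptor that couples to inhibitory G proteins, fell, with ratios of -0.79, -1.04, -0.85, -1.41 and -0.51 and a mean of -0.92 ± 0.27. Drd1 fell with 1 probe, with ratios of -0.72, -0.89, -0.30, -0.49 and -1.77 and a mean of -0.84 ± 0.28, or -1.12 with the trend removed. The other Drd1 probe averaged 0.49 ± 0.28 and did not pass, so the probes of this gene pointed in opposite directions. The called probe lost its call without replicate 2 (adjusted p = 0.055) or replicate 5 (adjusted p = 0.13). Drd4 averaged -0.24 ± 0.26.

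Downstream of the receptors, Prkaca, the catalytic subunit of the cyclic AMP-dependent kinase, had ratios of 3.38, 2.94, 1.22, 0.70 and 1.78 and a mean of 2.0 ± 0.34, or 1.60 with the trend removed. Ppp1r1a, an inhibitor of protein phosphatase 1 that this kinase activates, had ratios of 2.50, 2.65, 1.65, 0.49 and 1.34 and a mean of 1.72 ± 0.30, or 0.94 with the trend removed. Together with Rgs20 these were the 3 genes of the list called higher with the trend removed. The G protein subunits Gnai1 (0.68 ± 0.27), Gnai2 (1.03 ± 0.31) and Gnao1 (1.33 ± 0.31) and the striatal regulator Rgs9 (0.93 ± 0.31) rose in the main test. Ppp1r1b, the phosphoprotein DARPP-32, averaged -0.68 ± 0.45, Adcy5 0.17 ± 0.30 and Creb1 0.16 ± 0.25 and -0.03 ± 0.30, and none of them was called. Gnai1 (replicates 1, 2, 4 or 5, adjusted p up to 0.16) and Rgs9 (replicates 1 or 5, adjusted p up to 0.067) lost their call when any 1 of the arrays in brackets was left out.

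The proteins that cocaine binds showed no call. Slc6a3, the dopamine transporter, averaged -0.67 ± 0.40, Slc6a4, the serotonin transporter, -0.48 ± 0.30, and Slc6a2, the noradrenaline transporter, -0.13 ± 0.32. These genes are transcribed mainly, though not only, in brainstem and midbrain neurons whose cell bodies lie outside the cortex. Of 15 measured genes for monoamine transport, synthesis and breakdown, 2 were higher and 2 lower, or none higher and 2 lower with the trend removed. The vesicle transporter Slc18a2 rose to 1.37 ± 0.30 and Pnmt, which makes adrenaline, to 1.5 ± 0.30. Gch1, which makes the cofactor of dopamine and serotonin synthesis, fell, with ratios of -1.34, -0.88, -1.45, -0.40 and -1.90 and a mean of -1.19 ± 0.26, or -0.81 with the trend removed, and Maob, a monoamine-degrading enzyme, fell to -1.35 ± 0.31. Th averaged 0.32 ± 0.29 and Ddc -0.90 ± 0.46, neither called.

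Receptors for serotonin, noradrenaline and acetylcholine were higher in 3 of 26 cases and lower in 5, with a median of -0.35, against none higher, 1 lower and -0.18 with the trend removed. Adra2c, an inhibitory noradrenaline receptor, fell evenly, with ratios of -1.46, -1.2, -1.0, -1.08 and -1.10, a mean of -1.17 ± 0.28 and -1.33 with the trend removed. Htr1a, the inhibitory serotonin receptor of cortical neurons, fell to -1.2 ± 0.36 and lost its call without replicate 4 (adjusted p = 0.058). The nicotinic subunits Chrna3 (-1.25 ± 0.37) and Chrna7 (-0.89 ± 0.30) fell, while the muscarinic receptor Chrm1 (1.27 ± 0.39) rose. Htr2a (-0.57 ± 0.29), Htr2c (0.11 ± 0.26) and Chrna4 (0.42 ± 0.32) were not called. Chrna3 (replicates 1 or 4, adjusted p up to 0.079), Chrna7 (replicates 1, 2 or 4, adjusted p up to 0.095) and Chrm1 (replicate 2, adjusted p = 0.053) lost their call when any 1 of the arrays in brackets was left out.

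At the synapse, 9 of 30 vesicle and release genes were higher and 3 lower, with a median of 0.42, against 1 higher, 2 lower and -0.13 with the trend removed. Snap25, a membrane fusion protein, had ratios of 0.70, 2.36, 1.44, 1.19 and 0.71 and a mean of 1.28 ± 0.30, or 1.03 with the trend removed. Its partner Stx1a fell to -0.84 ± 0.27, and to -0.90 with the trend removed. Syn2 fell with 1 probe, at -1.61 ± 0.41, where replicate 4 stood at -5.05 and the other 4 arrays between -1.55 and -0.22. Syn1 (0.62 ± 0.31), Syp (0.87 ± 0.38), Syt1 (-1.0 ± 0.40 and -0.20 ± 0.31) and Vamp2 (1.03 ± 0.42) did not pass. Of 20 postsynaptic genes 4 were higher and 1 lower (1 and none with the trend removed), led by Pick1, a scaffold of AMPA receptors. Its ratios were 2.64, 2.61, 1.61, 1.30 and 1.79, all above 1, with a mean of 1.99 ± 0.28 and of 1.01 with the trend removed. Leaving out 1 array ended the call of Stx1a (replicates 2 or 5, adjusted p up to 0.11) and the Syn2 probe at -1.61 (replicate 4, adjusted p = 0.059).

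Receptors of fast transmission held few calls, with 4 of 19 glutamate receptor genes higher and 1 lower, and 1 of 19 GABA and glycine genes higher and 2 lower. Once the trend was removed, 1 glutamate receptor gene was higher and no GABA or glycine gene was called. Abat, the enzyme that breaks down GABA, fell to -1.88 ± 0.34 with ratios of -0.85, -2.38, -0.32, -2.80 and -3.05. The main AMPA and NMDA subunits Gria1 (0.78 ± 0.34), Gria2 (0.37 ± 0.26), Grin2a (-0.06 ± 0.34) and Grin2b (-0.15 ± 0.35 and 0.68 ± 0.36) were not called. Voltage-gated channel genes were lower in 10 of 30 cases and higher in 6, with a median of -0.28, against 2 lower, none higher and -0.11 with the trend removed. Scn8a, a sodium channel of the axon initial segment, fell, with ratios of -1.41, -1.64, -0.92, -0.78 and -0.73, a mean of -1.10 ± 0.30 and -1.19 with the trend removed. Cacna1g, a T-type calcium channel, fell to -1.33 ± 0.35, with replicate 4 at -3.54 and an adjusted p of 0.078 without it. For the potassium channel Kcnn2, 5 of 10 probes fell, with means from -1.67 ± 0.36 to -0.67 ± 0.27. Without replicate 4, 6 channel genes were lower. A call was lost when 1 array was left out for the Kcnn2 probe at -0.67 (replicates 1, 2, 3 or 5, adjusted p up to 0.26).

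Tissue was taken shortly after a dose, so transcripts that neurons and hormones induce within the hour are of interest. Immediate early genes carry, near their start, sites for the factor CREB, which the cyclic AMP-dependent kinase switches on. The motifs searched were TGACGTCA, the full cyclic AMP response element, and TGACG, its short form, which the full form contains, each on both strands in RefSeq promoters of GRCm38.p6 that run from 250 bases before to 50 bases after a gene's start. Of 34 measured genes, 25 had a promoter in the table. TGACG was present in 18 of these, 72%, against 23.05% of 27025 genes, and TGACGTCA in 2, 8.0%, against 2.03%. The promoters of 3 called genes with the short form are shown, 2 of which fell and 1 of which rose, each 5′ to 3′ on the minus strand with TGACG or its reverse complement CGTCA in capitals. They lie at chr19:4989922-4990221 (Npas4), chr7:19309996-19310295 (Fosb) and chr17:26508423-26508722 (Dusp1).
Npas4: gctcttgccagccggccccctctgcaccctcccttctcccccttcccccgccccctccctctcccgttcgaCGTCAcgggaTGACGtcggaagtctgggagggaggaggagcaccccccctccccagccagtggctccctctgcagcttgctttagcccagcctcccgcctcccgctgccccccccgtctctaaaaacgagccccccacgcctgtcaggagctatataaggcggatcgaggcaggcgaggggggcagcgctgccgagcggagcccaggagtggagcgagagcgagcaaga
Fosb: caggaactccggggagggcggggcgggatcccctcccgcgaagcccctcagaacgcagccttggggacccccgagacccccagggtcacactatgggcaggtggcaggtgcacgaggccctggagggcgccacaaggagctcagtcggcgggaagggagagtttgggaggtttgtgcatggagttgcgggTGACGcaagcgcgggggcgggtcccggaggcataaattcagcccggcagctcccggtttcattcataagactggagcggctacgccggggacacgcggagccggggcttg
Dusp1: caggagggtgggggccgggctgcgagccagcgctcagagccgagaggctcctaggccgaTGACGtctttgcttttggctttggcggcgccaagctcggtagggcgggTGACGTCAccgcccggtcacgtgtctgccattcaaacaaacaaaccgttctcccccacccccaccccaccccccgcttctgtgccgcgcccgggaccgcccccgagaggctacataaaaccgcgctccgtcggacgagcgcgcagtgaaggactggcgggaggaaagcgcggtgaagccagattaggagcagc

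The 18 genes whose promoter held TGACG went in several directions, as 2 were higher, 4 lower and 12 not called. In the whole list 6 of 34 genes were higher and 5 lower, with a median of 0.02, against 1 higher, 1 lower and -0.12 with the trend removed. Npas4, a transcription factor induced by calcium entry in neurons, has 2 short sites in the promoter above and fell, with ratios of -2.68, -0.56, -0.56, -2.70 and -1.35 and a mean of -1.57 ± 0.31. Fosb, with 1 such site, fell on every array, with ratios of -0.77, -1.15, -0.56, -1.67 and -0.80 and a mean of -0.99 ± 0.28. Dusp1, a phosphatase that ends MAP kinase signalling and whose promoter holds the full element, rose to 0.75 ± 0.28, with ratios of 0.28, 2.06, 0.07, 1.07 and 0.28. Its call was lost without replicate 2 (adjusted p = 0.285) or replicate 4 (adjusted p = 0.11). Junb (-0.86 ± 0.29) and Klf2 (-1.10 ± 0.28) fell, and Klf4 (0.81 ± 0.28) rose. The call was lost without 1 of the arrays in brackets for Junb (replicates 1 or 2, adjusted p up to 0.11) and Klf4 (replicates 1, 4 or 5, adjusted p up to 0.12).

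The best known immediate early genes were not called. Fos averaged 0.55 ± 0.33 at the first probe and -0.65 ± 0.33 at the other, Egr1 averaged -0.22 ± 0.30, Arc -0.23 ± 0.28, Jun 0.51 ± 0.26, Nr4a1 0.28 ± 0.31 and Bdnf 0.68 ± 0.35. Genes that answer to glucocorticoids were measured too. Nr3c1, the glucocorticoid receptor, had ratios of 1.72, 1.07, 0.78, 1.16 and 1.60 and a mean of 1.27 ± 0.30. Its target Fkbp5, a co-chaperone that dampens the receptor, had ratios of 0.44, 2.27, 1.0, 0.67 and 1.01 and a mean of 1.08 ± 0.32, or 1.18 with the trend removed, and Zbtb16 rose to 1.83 ± 0.31. All 3 lay above 0 on every array, and Fkbp5 lost its call without replicate 2 (adjusted p = 0.096). Per2 fell to -1.31 ± 0.37, and Per1 (0.51 ± 0.27) and Sgk1 (0.10 ± 0.29), another target of the receptor, were not called. Fkbp5 was the gene of this list called higher with the trend removed. Without the arrays in brackets, singly, no call was made for Per2 (replicate 4, adjusted p = 0.11).

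Chaperone and unfolded protein response genes were higher in 15 of 31 cases and lower in 2, with a median of 0.76, against 4 higher, none lower and -0.01 with the trend removed. The motif GAANNTTC, the core of the heat shock element, was present in 7 of 27 promoters, 25.9%, against 9.04% of 27025 genes. Of those 7 genes 1 rose, 1 fell and 5 were not called. The promoters of the 2 called genes are shown because they moved in opposite directions, Hspa1a on the minus strand at chr17:34972107-34972406 and Hspe1 on the plus strand at chr1:55087898-55088197, with the motif in capitals.
Hspa1a: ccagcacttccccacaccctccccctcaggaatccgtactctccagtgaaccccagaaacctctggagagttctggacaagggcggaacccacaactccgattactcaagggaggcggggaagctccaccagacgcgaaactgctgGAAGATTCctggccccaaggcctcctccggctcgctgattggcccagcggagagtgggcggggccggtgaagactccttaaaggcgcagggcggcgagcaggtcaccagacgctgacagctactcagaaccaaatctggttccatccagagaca
Hspe1: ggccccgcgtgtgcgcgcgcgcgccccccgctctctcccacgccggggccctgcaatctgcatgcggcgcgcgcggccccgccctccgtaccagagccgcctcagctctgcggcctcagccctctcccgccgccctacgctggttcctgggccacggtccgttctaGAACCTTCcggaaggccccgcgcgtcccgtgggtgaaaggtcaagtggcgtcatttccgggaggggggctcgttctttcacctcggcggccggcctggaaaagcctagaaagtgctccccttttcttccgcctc

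Hspa1a, the stress-inducible Hsp70, fell, with ratios of -1.41, -1.38, -1.07, -2.74 and -1.71 and a mean of -1.66 ± 0.37, all arrays below -1. Hspe1, the mitochondrial co-chaperonin, rose, with ratios of 1.15, 2.19, 1.49, 0.73 and 1.46 and a mean of 1.40 ± 0.35. Hspa8, the constitutive Hsp70, had ratios of 1.52, 2.09, 1.30, 1.89 and 1.12 and a mean of 1.58 ± 0.32, or 0.88 with the trend removed. So the inducible and the constitutive form of the chaperone stood on opposite sides of 0 on every array in the main fit. With the trend removed Hspa8 kept its call, while Hspa1a and Hspe1 were not called. In the endoplasmic reticulum, the sensor Atf6 rose to 1.34 ± 0.27, the chaperone Calr to 1.07 ± 0.37 and Ddit3, the factor CHOP that prolonged stress induces, to 1.60 ± 0.27, with ratios of 1.80, 2.46, 1.37, 0.73 and 1.65. These 3 and Hspa8 were the genes called with the trend removed. Hspa5 (1.13 ± 0.36) and Atf4 (0.98 ± 0.34) rose, and Hspd1 (0.21 ± 0.28), Hspb1 (0.28 ± 0.35) and Xbp1 (0.07 ± 0.33) were not called. Antioxidant, glutathione and iron genes were higher in 12 of 34 cases and lower in 3 (2 and 1 with the trend removed), with Gsta1 (1.79 ± 0.31) and the ferritin chain Ftl1 (1.89 ± 0.35) highest and the detoxifying enzyme Nqo1 (-0.88 ± 0.29) among the lower. Omitting any 1 of the arrays in brackets ended the call of Calr (replicate 2, adjusted p = 0.21), Hspa5 (replicate 2, adjusted p = 0.16), Atf4 (replicates 1 or 5, adjusted p up to 0.27) and Nqo1 (replicate 4, adjusted p = 0.10).

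In the lists for protein synthesis, energy and protein breakdown, more genes were called higher than lower. Cytosolic ribosomal protein genes were higher in 56 of 67 cases and lower in 1, with a median of 1.03 and array medians of 0.85, 1.96, 0.99, 0.42 and 0.97. All 5 array medians lay above 0 and replicate 2 was the highest. These are bright probes, at a median brightness percentile of 90.1, and with the trend removed the median was 0.11 and 3 genes were called. Without replicate 2, 23 of the 67 were higher. The pattern was alike for proteasome subunits (22 of 37 higher, median 0.99, 1 higher and 0.22 with the trend removed, 9 higher without replicate 2) and translation factors (21 of 39 higher, median 0.76, 5 higher and 0.11 with the trend removed, 9 higher without replicate 2). Respiratory chain genes had 29 of 72 higher and none lower, with a median of 0.65, and mitochondrial ribosomal proteins 26 of 73 higher and 8 lower, with a median of 0.34. With the trend removed, respiratory chain genes had 3 higher, 4 lower and a median of 0.11, and mitochondrial ribosomal proteins 4 higher, 2 lower and a median of 0.06. Without replicate 2, 16 and 13 of them were higher.

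A few genes of these lists were called in the fit with the trend removed. Except for translation factors (5 of 39), the share called higher there was near the 4.33% of all genes. Rps9, a protein of the small subunit, had ratios of 1.35, 2.21, 2.15, 1.14 and 1.11 and a mean of 1.59 ± 0.31, and 1.65 with the trend removed. Rpl28 had ratios of 1.71, 2.28, 1.31, 1.31 and 1.36 and a mean of 1.59 ± 0.30, or 0.84 with the trend removed. Both lay above 1 on every array. Among initiation factors, Eif6 (1.78 ± 0.30, or 1.18), which keeps the ribosomal subunits apart, 1 of 3 probes of Eif5b (1.63 ± 0.32, or 1.15), Eif5a (1.72 ± 0.32, or 1.0) and Eif3a (1.68 ± 0.31, or 0.94) were called in both fits, where the second value is that with the trend removed. Ndufb4 (1.08 ± 0.27, or 1.19), a subunit of respiratory complex I, Cox8a (1.19 ± 0.31, or 0.96), of complex IV, and Psmd6 (1.35 ± 0.34, or 1.11), of the proteasome cap, were called in both as well. Pfkl, a rate-setting enzyme of glycolysis, fell to -1.10 ± 0.30, or -1.2 with the trend removed, and its relative Pfkm rose to 1.55 ± 0.30. Psmb8, a subunit of the immunoproteasome, fell to -1.23 ± 0.34, with replicate 4 at -3.24 and an adjusted p of 0.088 without it.

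Genes for enzymes that modify histones and DNA were higher in 8 of 35 cases and lower in 5, with a median of 0.06, against 3 higher, none lower and 0.01 with the trend removed. Dnmt3a, which writes new DNA methylation in neurons, had ratios of 2.53, 0.62, 0.91, 1.25 and 1.08 and a mean of 1.28 ± 0.34, or 1.37 with the trend removed. Eed, a core subunit of the Polycomb complex that methylates histone H3, rose with 1 probe, with ratios of 1.72, 1.35, 2.01, 0.43 and 2.09 and a mean of 1.52 ± 0.29. Both genes stood above 0 on all 5 arrays. The histone deacetylases Hdac1 (0.76 ± 0.24) and Hdac2 (1.23 ± 0.31) rose and Hdac6 (-1.24 ± 0.41), 1 of 2 probes of Hdac9 (-0.95 ± 0.36) and the related Sirt1 (-1.02 ± 0.28) fell. Hdac6 lost its call without replicate 4 (adjusted p = 0.23). Dnmt1 (-0.06 ± 0.47) and Ezh2 (0.12 ± 0.35) were not called. Hdac1 (replicate 4, adjusted p = 0.073) and the Hdac9 probe at -0.95 (replicates 1, 2, 3 or 4, adjusted p up to 0.19) lost their call when any 1 of the arrays in brackets was left out.

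Markers of cells other than neurons were mixed in direction. Astrocyte genes were higher in 3 of 18 cases and lower in 1 (none and 1 with the trend removed), with Gfap (-0.21 ± 0.28) and Slc1a2 (0.03 ± 0.33 and -0.30 ± 0.28) not called. Microglia and immune genes were higher in 4 of 22 and lower in 3 (1 and 2 with the trend removed), with Tyrobp, a signalling adaptor of microglia, up evenly at 1.16, 0.83, 0.84, 1.13 and 0.99 (mean 0.99 ± 0.30, or 1.2 with the trend removed) and the cytokine gene Il6 down (-1.33 ± 0.32, or -0.92). Fcer1g fell too (limma, adjusted p = 0.00066), with means from -1.99 to -1.40 when 1 array was left out. It kept its call in each of those fits (adjusted p up to 0.0068). Cx3cr1 (-0.63 ± 0.32), C1qa (0.02 ± 0.38) and Tnf (-0.07 ± 0.32) were not called. Endothelial and pericyte genes were higher in 4 of 22 and lower in 4 (1 and 1 with the trend removed), where Abcb1a, the drug efflux pump of the blood-brain barrier, fell to -1.75 ± 0.43 with ratios of -3.98, -2.08, -0.28, -0.98 and -1.41. Acta2 (limma, adjusted p = 0.0031) and Esam (adjusted p = 0.0088) rose. Acta2 lost its call without replicate 1 (adjusted p = 0.051) and Esam without replicate 2 (adjusted p = 0.075). The vessel markers Pecam1 (0.35 ± 0.27), Cldn5 (0.69 ± 0.34) and Cdh5 (-0.67 ± 0.37) were not called.

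Genes of tissue that can be cut along with the cerebral wall went both ways. Meninges and fibroblast matrix genes were lower in 5 of 19 cases and higher in 2, with a median of -0.57 and array medians from -0.75 to -0.10, against 1 lower, none higher and a median of -0.22 with the trend removed. Col1a2, a collagen chain of fibroblasts, fell to -1.51 ± 0.38, with ratios of -2.60, -2.43, -0.79, 0.56 and -2.31, and to -2.03 with the trend removed, while Col1a1 (0.57 ± 0.42) was not called and Col3a1 (0.98 ± 0.31) rose. Choroid plexus, ependyma and blood genes were lower in 4 of 16 and higher in 3, with a median of -0.35 and array medians from -0.91 to 0.18, against 1 lower, none higher and a median of 0.02 with the trend removed. Ttr, the main transcript of choroid plexus, averaged -0.84 ± 0.44 and was not called. Folr1 fell (limma, adjusted p = 0.00082), with means from -1.63 to -1.15 when 1 array was left out. It kept its call in each of those fits (adjusted p up to 0.0087). Haemoglobin Hba-a1 rose to 0.85 ± 0.32 while the erythroid genes Alas2 (-0.88 ± 0.35) and Slc4a1 (-1.11 ± 0.28) fell. The part of these tissues in the results was not tested. Leaving out 1 array ended the call of Col3a1 (replicate 2, adjusted p = 0.084), Hba-a1 (replicates 1, 2, 3, 4 or 5, adjusted p up to 0.12) and Alas2 (replicates 1, 2, 4 or 5, adjusted p up to 0.57).

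Few probes differed from the other groups by a test of the difference itself, in limma's contrasts over the same 20 arrays. Between fetal frontal and fetal occipital cortex 5 probes were called, 0.0222% of those tested, where 3504 had an unadjusted p below 0.05. All 5 were higher in fetal frontal cortex. Dapp1, an adaptor of B-cell signalling, had ratios of 2.22, 1.94, 0.87, 0.26 and 0.92 in fetal frontal cortex and of -1.58, -3.92, -0.76, -0.20 and -0.76 in fetal occipital cortex, without overlap, and the means differed by 2.69 ± 0.50. Gp1bb differed by 2.65 ± 0.50, with means of 2.33 ± 0.36 in fetal frontal and -0.32 ± 0.36 in fetal occipital cortex, again without overlap. Pdlim4, which links actin to signalling proteins, differed by 2.17 ± 0.40, with means of 0.78 ± 0.28 and -1.39 ± 0.28. Clec3b, the plasminogen-binding protein tetranectin, differed by 2.37 ± 0.44, with means of 0.70 ± 0.31, not called by itself, and -1.67 ± 0.31 and an overlap of 1 array each. With the brightness trend removed the fetal frontal means were 0.70 for Dapp1, 1.13 for Gp1bb, -0.21 for Pdlim4 and 0.01 for Clec3b. Only that of Gp1bb was called. The fifth probe has no gene symbol. These 5 probes stand between inferred columns 192 and 214, and the call at an adjusted p of 0.045 was shared by all of them. For Pdlim4 the call of the fetal frontal mean itself, apart from the difference, was lost when 1 array was left out (replicates 1 or 2, adjusted p up to 0.22).

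The count of 5 rested on single arrays and settings. Without fetal frontal replicate 1, 2 or 5 the count was 0, without fetal frontal replicate 3 it was 14 and without replicate 4 it was 12. Without fetal occipital replicate 1 or 1b the count was 0, without replicate 3 it was 23, without replicate 4 it was 2 and without replicate 5 it was 179. With the brightness trend removed 1 probe was called, lower in fetal frontal cortex, and with both trends removed 2. None of these was among the 5. With the position trend removed 0 probes were called. The ratios of fetal occipital replicate 1b followed position on the array most, with 44.7% of their variance, against 3.49% to 19.5% on the fetal frontal arrays. The part of array position in these differences was not tested beyond that fit.

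Between fetal frontal and adult frontal cortex 6 probes were called, 0.0266% of those tested, 5 of them higher and 1 lower in the fetus, where 3171 had an unadjusted p below 0.05. The lower one was Mbp, myelin basic protein, the main structural protein of the myelin sheath, and it was the strongest of the 6. In fetal frontal cortex its ratios were -1.85, -2.32, -0.29, -1.28 and -3.82, with a mean of -1.91 ± 0.37, or -1.82 with the trend removed. In adult frontal cortex they were 1.58, 2.08, 1.53, 2.73 and 1.21, with a mean of 1.83 ± 0.37. All 5 fetal arrays lay below 0 and all 5 adult arrays above 1. The difference was -3.74 ± 0.52 (limma, adjusted p = 0.00093). Fetal occipital cortex was also below 0 on every array, with a mean of -0.89 ± 0.37.

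The other myelin genes of the fetal frontal wall were mixed. Of 16 oligodendrocyte and myelin genes 6 were higher and 2, Mbp and Nkx2-2, lower, with a median of 0.24, against 1 higher, 2 lower and 0.23 with the trend removed. Mobp rose to 1.29 ± 0.29, with ratios of 1.79, 1.02, 1.35, 1.07 and 1.23, Mag to 1.07 ± 0.29, Mog to 1.05 ± 0.36 and Cnp to 1.04 ± 0.28. Olig1, a factor of the oligodendrocyte lineage, rose to 1.91 ± 0.33, with ratios of 2.87, 2.55, 2.50, 0.79 and 0.83, and to 1.41 with the trend removed, whereas Olig2 (-0.33 ± 0.28), Sox10 (-0.58 ± 0.30) and Pdgfra (-0.22 ± 0.27) were not called. For Mobp, Mag, Mog, Cnp and Olig1 the fetal minus adult difference lay between -0.70 and 0.22, and none passed. The lowest differences after Mbp were those of Mal (-1.90 ± 0.59, adjusted p = 0.18), at -0.06 ± 0.42 in fetal and 1.84 ± 0.42 in adult frontal cortex, and Cldn11 (-1.21 ± 0.45, adjusted p = 0.24), at -0.31 ± 0.32 in fetal and 0.90 ± 0.32 in adult frontal cortex. Neither passed, and both were picked after their values were seen. The Mog call was lost without replicate 2 (adjusted p = 0.23). The call was lost without 1 of the arrays in brackets for Mag (replicate 2, adjusted p = 0.080) and Cnp (replicate 1, adjusted p = 0.0501).

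The other named genes that differed from adult frontal cortex were Atp6v1c2, a subunit of a proton pump, Dync2h1, the motor of transport inside cilia, and the olfactory receptor Olfr829. Atp6v1c2 rose in fetal frontal cortex, with ratios of 1.26, 1.91, -0.28, 1.91 and 1.36 and a mean of 1.23 ± 0.31, against -1.18 ± 0.31 in adult frontal cortex, where all 5 arrays lay below 0. The probe of Dync2h1 that differed, 1 of 3, averaged 0.36 ± 0.25 in fetal frontal cortex, not called, against -1.47 ± 0.25 in adult frontal cortex. Olfr829 averaged -0.45 ± 0.28 in fetal frontal cortex, not called, against -2.53 ± 0.28 in adult frontal cortex. The last 2 differences therefore came with a call in the adult arrays and none in the fetal ones. Counts here also moved, with 1 to 3 probes called when any fetal frontal array was left out, 14 without adult frontal replicate 1, 84 without adult frontal replicate 5 and 1 without adult frontal replicate 2, 3 or 4.

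**Figure D5:**
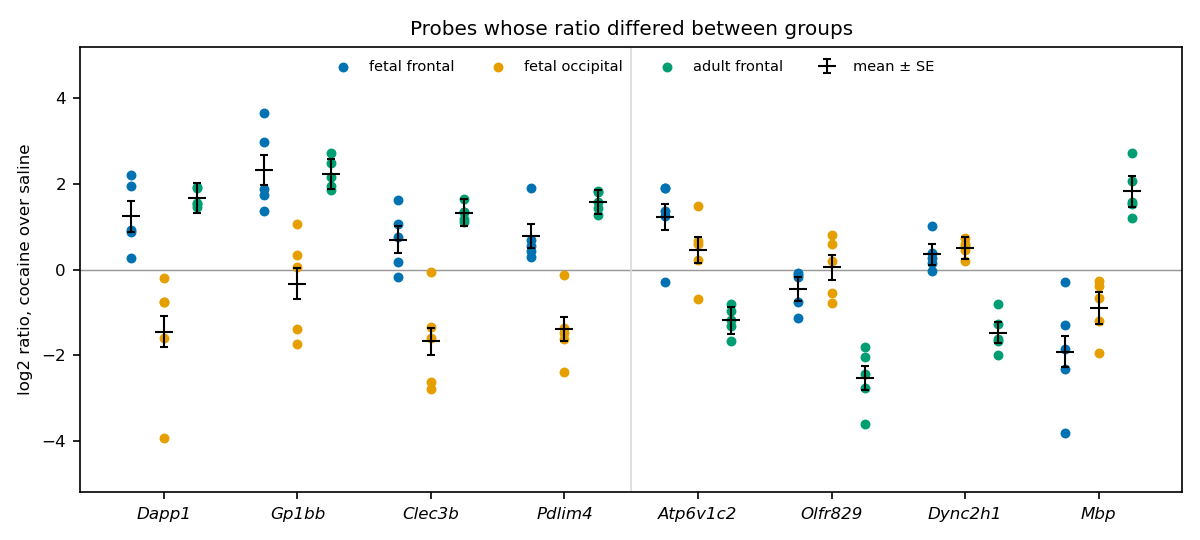
Log2 ratio of cocaine over saline on each array of fetal frontal (blue), fetal occipital (orange) and adult frontal cortex (green), with black bars for the mean ± SE, for the named genes that differed from fetal occipital cortex (left of the line) or from adult frontal cortex (right of it). The Mbp points of fetal frontal cortex lie below 0 on all 5 arrays and those of adult frontal cortex above 1.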

How the data were processed

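Each array held 22575 probes of an Agilent mouse oligonucleotide design hybridised with 2 dyes. The authors deposited 1 log2 ratio of the channels per probe and array. How these were background-corrected or normalized is not given in the sources used here, intensities were not analysed here, and the number of arrays limits the precision. Values at an array's maximum were set to missing and each array was centred on its median. The 8 probes with fewer than 3 values in a group were left out. limma 3.58.1 (R 4.3.3) was fitted over the 4 groups of all 20 arrays and each mean was tested against 0, with Benjamini-Hochberg adjustment over all 22567 probes at 0.05. Unless another tool is named, every adjusted p comes from limma, and those for differences come from contrasts of the same model. Tables and figures were made with Python 3.11.15.

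For the brightness score, a constant set by each array's maximum was first taken off its deposited ratios. Pairs of whole numbers of at most 400 were then tried in rising order until the log2 of 1 over the other came within 0.001 of that value. The size of the pair was averaged over the 20 arrays, and larger pairs count as brighter. Array positions were inferred from probe order, as 105 rows of 215. Trends in brightness and position were removed by loess with spans of 0.3 and 0.05. A single gene symbol was found for 18218 probes, several for 16 and none for 4341, and 18175 gene IDs matched the RefSeq table of GRCm38.p6. The genes named are the 15 highest and 15 lowest with the same sign on 5 arrays, up to 8 per direction in each difference, and from 37 gene lists the chosen landmark genes and others that passed. A gene counts as higher or lower in a list where at least 1 of its probes was called. Members and lists were chosen with earlier results of these data known. The fitting code was tested on simulated data. Alternatives covered scaling, weights, filters, trends, leaving out each array and a replicate block.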

Additional observations from a re-analysis of the deposited data

Results flagged for a closer look

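In 19 of 313 probes of named genes, 1 fetal frontal array stood apart from the other 4 by Dixon's test, which chance alone does in about 1 in 20 groups. Replicate 4 was the array apart for Elf3 (-5.41), Syn2 (-5.05), Nkx2-1 (-4.52), Dlx1 (-4.43), Hdac6 (-3.63), Alas2 (-3.45) and Mki67 (-3.24) on the low side, and for Reln (0.80) and Cx3cr1 (0.79) on the high side. Replicate 5 stood apart for Acacb (-7.22), Pcna (-2.03) and Nr2f1 (0.36), replicate 3 for Ddc (-3.56) and Ppp1r1b (-3.55), replicate 2 for Mag (2.62), Pdlim4 (1.90) and Jun (1.27), and replicate 1 for Cidea (2.37) and Ret (-0.52). None of 8 summaries of whole arrays stood apart in this way.

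A difference between groups passed limma's contrast for 11 probes. Against fetal occipital cortex these were Dapp1 (2.69), Gp1bb (2.65), Clec3b (2.37), Pdlim4 (2.17) and a probe without a symbol (2.92). Against adult frontal cortex these were Mbp (-3.74), Atp6v1c2 (2.42), Olfr829 (2.08), Dync2h1 (1.83) and probes without a symbol at 2.44 and 2.11. The unnamed probe at 2.44 averaged -0.68 ± 0.33 in fetal frontal cortex and -3.11 ± 0.33 in adult frontal cortex, and neither its gene nor that of the others is given in the tables used here.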

How the results depend on the processing

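Each alternative changed 1 choice in the limma fit, except those that removed both trends or joined the brighter probes with trend removal, and counts are probes at an adjusted p below 0.05. For cocaine over saline in fetal frontal cortex, 8359 probes were called, and the count was 9 with replicate 1 turned in sign, 1715 with the brightness trend removed, 2399 with the brightness and position trends removed, and 5486 with a mean of at least 1 required. It ranged from 5243 to 7975 when 1 array was left out. Among probes with a brightness score above the median, an alternative chosen after seeing the data, 4399 were called, 93.48% of them higher, and 1076 with the trend removed. Higher probes made up 50.45% of the calls, 47.00% to 60.94% when 1 array was left out and 47.33% without centring. Of the gene lists' 496 called genes the count was 0 with replicate 1 turned, 100 with the brightness trend removed, 135 with both removed, 298 to 472 without 1 array, and 69 among the brighter probes with the trend removed. Fetal frontal minus fetal occipital cortex gave 5 calls, and it gave 9 without centring, 361 with arrays scaled to equal spread, 306 with quantile normalization, 104 with array weights, 696 with robust regression, 8 with exact zeros as missing, 1 with the brightness trend removed, 2 with both trends removed, 157 at an adjusted p below 0.1, 31 among the brighter probes and 1 there with the trend removed. None of the calls made with the brightness trend removed, alone or with the position trend, was among the 5. This difference gave 0 from the arrays of the comparison alone, with values at the array maximum kept, with replicate 1 turned and with the position trend removed, where 1853 to 3485 probes had an unadjusted p below 0.05, and 0 to 179 without 1 array. Fetal frontal minus adult frontal cortex gave 6 calls, and it gave 17 without centring, 1 with arrays scaled, 2 with quantile normalization, 1 from the arrays of the comparison alone, 12 with array weights, 1397 with robust regression, 3 with exact zeros as missing, 1 with replicate 1 turned, 3 with the brightness trend removed, 61 with the position trend removed, 56 with both removed, 44 at an adjusted p below 0.1, and 1 to 84 without 1 array. Among the brighter probes it gave 0, and 0 with the trend removed there, where 1229 and 1257 had an unadjusted p below 0.05. The Mbp difference kept its call in 27 of 28 alternatives, all but replicate 1 turned in sign (-3.00). The cause was not tested for any of these.

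Same-numbered arrays of the groups compared had deviations that correlated between -0.13 and 0.16, so the numbers were not taken to pair the arrays. With the replicate block 8488 probes were called in fetal frontal cortex, 497 genes on the lists, 0 for the difference from fetal occipital cortex (3020 at an unadjusted p below 0.05) and 8 for that from adult frontal cortex.

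Signs turned for some named genes. With the brightness trend removed, and then with the position trend removed too, Alas2 (0.05 and 0.21), Col3a1 (-0.12 and -0.05), Ctnnb1 (-0.09 and -0.10), Cxcr4 (-0.21 and -0.09), Dlx5 (-0.40 and -0.27) and Fzd3 (-0.30 and -0.07) turned. So did Cdc20 (-0.38 and -0.25), Gad2 (-1.10 and -1.03), Gnai1 (-0.26 and -0.20), Kcnn2 (0.13 and 0.37), Nr4a2 (-0.08 and -0.03), Sst (-1.0 and -1.21) and Tubb3 (-0.56 and -0.39). With the brightness trend alone removed, Ccnd3 (-0.00) and Pdlim4 (-0.21) turned, and with both removed Bik (-0.13), Birc2 (0.02), Birc5 (-0.06), Drd3 (-0.02), Dusp1 (-0.11), Gnao1 (-0.23), Ncam1 (-0.12), Rgs9 (-0.02), Syn1 (-0.71) and Wnt5a (-0.10). Where these genes were among the brighter probes, which left out Alas2 and the turned Kcnn2 probe, their values with the brightness trend removed were the same there. With replicate 1 turned, Sox4 (-0.23) and Atf4 (-0.26) turned, and with the probes of a gene averaged, 1 probe each of Kcnn2 (-0.85) and G3bp1 (-0.84). Gad2, Sst and Syn1 were not called in the main test, and were called lower in the fits where they turned.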
